A study of Mus musculus with 10 samples.

Results

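The genes of the endothelial adherens junction were followed in brain endothelial cells (BECs) of APP/PS1 and control mice. The rule is a list of 9 gene names, with no threshold on their values: Cdh5, Ctnnb1, Ctnna1, Ctnnd1, Jup, Afdn, Nectin2, Pecam1 and Cdh2. All 9 were among the 14106 genes of the deposited table. The 10 RNA libraries comprised 5 of APP/PS1 and 5 of control BECs, all from female mice that were 1 year old. The control libraries are labelled WT and came from mice of the same C3H/BL6 background. APP/PS1 mice carry the APPswe and PSEN1dE9 transgenes, both driven by the mouse prion promoter, and deposit amyloid in the brain. BECs were enriched from the dissociated cortex, freed of meninges and myelin, with beads against CD31, and the study checked their purity as CD31+ CD45- cells. Each replicate number was taken as a batch of 1 control and 1 APP/PS1 library, which gave 5 batches. The sample labels instead put replicates 4 and 5 of both groups in 1 batch, which gives 4. The sources used here do not state whether a library was 1 mouse or a pool, so each SD and p-value rests on the spread between libraries.

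Adherens junctions hold neighbouring cells together through cadherins, which bind each other outside the cell and catenins inside it. In endothelium the main cadherin is VE-cadherin, and its grip on the actin cytoskeleton through the catenins helps to set how tightly a vessel is sealed. Nectins and afadin form a second adhesion system beside the cadherins, and PECAM-1 joins endothelial cells at the same border. In the vessels of the brain these contacts lie together with the tight junctions of the blood-brain barrier.

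None of the 9 genes passed an adjusted p of 0.05 in APP/PS1 BECs (limma with 5 batches, Benjamini-Hochberg over 14106 genes), and 0% of all genes did. The adjusted p-values of the 9 genes lay between 0.603 and 0.886. Afdn was the 1 member with an unadjusted p under 0.05, which 8.03% of all genes had. The fold change estimates were above 0 for 6 members and below 0 for 3, with a median log2 fold change of 0.07 against −0.00377 over all genes. Among all 14106 genes, 6798 estimates were above 0 and 7308 below. The 95% intervals of all 9 members lay between 0.756-fold and 1.36-fold, so no interval reached beyond a change of these sizes, and 8 of the 9 intervals included no change. In bulk RNA, fewer cells of a type and less RNA per cell cannot be told apart.

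Upstream sequences are shown for Jup, Nectin2 and Afdn, the 3 members whose estimates were farthest from 0. They are the 250 bases before the RefSeq start of each gene on GRCm38.p6, read in the direction of the gene, and 5 of the 9 members had an entry. Capitals mark GGAA, the core of ETS factor sites, CACCTG, an E-box bound by Snail and ZEB repressors, and CTTTGA, the core of TCF and LEF sites, each searched on both strands. No match overlapped another.
Jup, chr11:100397791-100398040 (minus strand): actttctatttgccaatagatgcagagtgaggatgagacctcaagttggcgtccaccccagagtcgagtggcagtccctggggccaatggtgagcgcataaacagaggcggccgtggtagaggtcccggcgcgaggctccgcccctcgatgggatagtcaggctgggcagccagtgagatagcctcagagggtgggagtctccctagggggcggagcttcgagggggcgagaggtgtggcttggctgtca
Nectin2, chr7:19749574-19749823 (minus strand): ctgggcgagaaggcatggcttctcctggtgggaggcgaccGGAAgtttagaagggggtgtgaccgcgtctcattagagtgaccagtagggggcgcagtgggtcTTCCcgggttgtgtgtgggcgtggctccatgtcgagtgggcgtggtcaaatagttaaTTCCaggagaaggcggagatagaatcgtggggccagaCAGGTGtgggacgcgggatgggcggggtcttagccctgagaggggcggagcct
Afdn, chr17:13760291-13760540 (plus strand): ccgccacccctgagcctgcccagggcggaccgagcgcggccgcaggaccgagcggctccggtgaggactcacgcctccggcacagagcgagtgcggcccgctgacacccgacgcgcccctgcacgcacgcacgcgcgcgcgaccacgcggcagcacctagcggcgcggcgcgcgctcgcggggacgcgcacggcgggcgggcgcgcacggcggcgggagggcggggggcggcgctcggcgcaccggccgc
The Nectin2 window held 3 matches to GGAA, 1 to CACCTG (read here as its reverse complement) and 0 to CTTTGA. The windows of Jup and Afdn held none of the 3 motifs. Over 32851 promoters of the same length, 93.4% held GGAA, 17.2% held CACCTG and 13.8% held CTTTGA. The GC content was 62% for Jup and Nectin2 and 82.8% for Afdn, against a median of 52.4%. The Nectin2 window lies before its coding transcripts and within an intron of a longer non-coding transcript of the gene in GENCODE. The windows were read from the reference and no binding was measured.

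The libraries held between 22371766 and 126686149 adjusted counts, that is, counts after the authors' batch correction, with the lowest totals in replicate 1 of both groups. The correction set the batch means nearly equal: the SD of the 5 batch means was between 0.00101 and 0.00489 log2 units for the 9 members. In each batch a value above the mean in 1 library therefore stands with an equal value below it in the other. All 15 endothelial markers were in the table, and they summed to between 32782 and 35506 CPM (counts scaled to the library size) in control libraries and between 33314 and 36133 in APP/PS1 libraries. Markers of mural cells (12 of 12 in the table) summed to 630 to 1058 CPM (control) and 329 to 634 CPM (APP/PS1). Sums over a list are carried by its most abundant genes, so the estimates of single markers are given after them. Those of astrocytes (10 of 10) summed to 275 to 316 and 273 to 325 CPM, those of oligodendrocyte precursors (7 of 8) to 35.5 to 50.4 and 29.5 to 37.0, those of neurons (6 of 10) to 112 to 134 and 112 to 136, and those of microglia and leukocytes (6 of 8) to 10.1 to 16.7 and 8.60 to 14.8. Erythroid markers (4 of 5) summed to 29.3 to 241 and 14.2 to 153 CPM, those of choroid plexus and ependyma (3 of 7) to 41.4 to 80.0 and 15.3 to 40.2, those of fibroblasts (3 of 7) to 6.70 to 7.88 and 4.63 to 5.41, and the 1 of 6 platelet markers in the table to 1.66 to 2.90 and 1.60 to 2.73. By single genes, 9 of 10 astrocyte markers (median log2 fold change −0.66), 6 of 7 precursor markers (−0.74), 5 of 6 neuron markers (−0.34) and 12 of 12 mural markers (−0.76) had estimates below 0. In the astrocyte sum Gja1 had an estimate of 0.27 and in the neuron sum Stmn2 one of 0.02, and both are among the most abundant genes of their lists. Of the 15 endothelial markers, 12 had estimates above 0 (median 0.04).

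Batch 2 stood apart from the others. The summed level of 7 oligodendrocyte markers (of 9 listed) was 178 to 275 CPM in control replicates 1, 3, 4 and 5 but 39.5 in control replicate 2. It was 32.6 to 46.9 CPM in the same APP/PS1 replicates but 141 in APP/PS1 replicate 2. The log2 ratio of APP/PS1 to control was therefore 1.83 in batch 2 and between −3.08 and −2.19 in the others. Prnp, the gene whose promoter drives the transgenes, averaged 7.76 (control) and 7.84 (APP/PS1) log2 CPM (log2 fold change 0.08, SE 0.128, limma adjusted p = 0.914). Its differences by batch were 0.09, −0.44, 0.39, 0.33 and 0.00165, so it was lower in batch 2 in the library labelled APP/PS1. Higher in 4 batches and lower in batch 2 were 16.1% of the 5503 genes with a mean of at least 5 log2 CPM. In batch 2 the log2 ratio was −0.25 for oligodendrocyte precursors, −0.31 for fibroblasts and −0.71 for choroid plexus and ependyma. These sums were lower in APP/PS1 in all 5 batches. The mural ratio in batch 2 was −0.32, and that sum was lower in 4 of 5 batches. The endothelial sum was lower in APP/PS1 in batch 2 alone (−0.09, against 0.01 to 0.14 elsewhere). By single genes, the median difference of astrocyte markers (0.33) and of neuron markers (0.07) was above 0 in batch 2 alone. Sums of astrocytes, neurons, microglia and leukocytes, platelets and erythroid cells had both signs among the other batches. Whether the labels of replicate 2 were exchanged was not tested. The transgenes themselves were not used to check the labels here. Results are given below with and without replicate 2.

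Levels between genes were compared per length, as log2 CPM per kb of exon (mean ± SD over n = 10 libraries). Ctnnb1 (8.19 ± 0.07), Pecam1 (8.16 ± 0.08) and Cdh5 (8.13 ± 0.12) were the highest members, and the libraries of these 3 genes overlapped. They ranked 90th, 93rd and 95th per kb among all genes. Ctnna1 (6.63 ± 0.08), Afdn (5.52 ± 0.10), Jup (4.84 ± 0.16), Ctnnd1 (3.56 ± 0.06), Nectin2 (2.72 ± 0.14) and Cdh2 (0.98 ± 0.09) followed, and no library of one overlapped with those of its neighbour in this order. Exon lengths were those of all annotated exons of a gene, so the order also rests on the annotation. Of the exons of Ctnnd1, 4482 bases (61.2%) are also annotated to Gm28635 on the same strand. Its level and its place in this order are therefore uncertain.

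**Figure D1:**
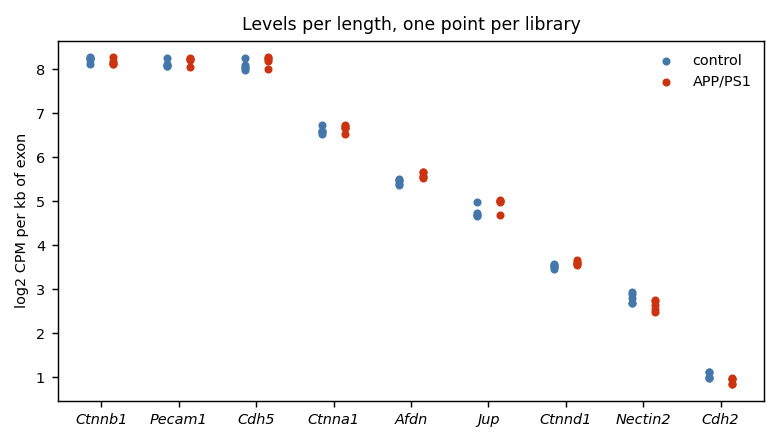
The plot gives the level of each member in log2 CPM per kb of exon (vertical axis), with 1 point per library, control in blue and APP/PS1 in red. Ctnnb1, Pecam1 and Cdh5 lie together near 8.1 to 8.2, and Cdh2 is lowest at 0.98.

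Cdh5 encodes VE-cadherin and lies at chr8:104101625-104144511 (GRCm38). In control replicates 1 to 5 it was measured at 10.06, 10.33, 10.15, 10.10 and 10.11 log2 CPM. In APP/PS1 replicates 1 to 5 it was 10.34, 10.07, 10.26, 10.31 and 10.30. The groups overlapped because control replicate 2 was near the top of the range and APP/PS1 replicate 2 near its bottom, and the APP/PS1 library was the higher in the other 4 batches. The group means were 10.15 ± 0.11 and 10.26 ± 0.11 log2 CPM (SD, n = 5 each). The log2 fold change was 0.10 (SE 0.0892, 95% interval −0.12 to 0.32, limma adjusted p = 0.845), which spans a change of −7.74% to 25.2%. Without replicate 2 it was 0.20 (SE 0.0513, limma adjusted p = 0.258).

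Ctnnb1 and Ctnna1 encode β-catenin, which binds the tail of the cadherin, and α-catenin, which links that complex to actin. Ctnnb1 (chr9:120929216-120960507) was 10.65, 10.64, 10.58, 10.50 and 10.62 log2 CPM in control replicates 1 to 5 and 10.49, 10.50, 10.56, 10.64 and 10.52 in APP/PS1. The APP/PS1 library was the lower in 4 batches and the higher in batch 4, and the groups overlapped. Its log2 fold change was −0.05 (SE 0.0608, limma adjusted p = 0.877). Ctnna1 (chr18:35118859-35254779) was 9.20, 9.40, 9.29, 9.25 and 9.29 log2 CPM in the controls and 9.42, 9.22, 9.34, 9.38 and 9.34 in APP/PS1. As for Cdh5, the APP/PS1 library was lower in batch 2 alone. Its log2 fold change was 0.05 (SE 0.0676, limma adjusted p = 0.886), and 0.12 without replicate 2. Of the exons of Ctnnb1, 759 bases (14.6%) are shared with Ulk4 on the opposite strand, and whether reads were counted by strand is not given in the sources used here.

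Ctnnd1 encodes the catenin that holds cadherins at the membrane by slowing their uptake, and Jup encodes plakoglobin, which can take the place of β-catenin. Ctnnd1 (chr2:84600071-84650765) was 6.33 to 6.45 log2 CPM in the controls and 6.42 to 6.53 in APP/PS1 BECs, with a log2 fold change of 0.07 (SE 0.0503, limma adjusted p = 0.815). Its groups overlapped, and its level is uncertain, since 4482 bases (61.2% of its exons) are also annotated to Gm28635 on the same strand, a gene with no row in the table. Jup (chr11:100368958-100397763) was 7.38, 7.67, 7.38, 7.41 and 7.35 log2 CPM in control replicates 1 to 5. In APP/PS1 replicates 1 to 5 it was 7.68, 7.38, 7.68, 7.66 and 7.71. Apart from replicate 2 every APP/PS1 library was above every control library, and in replicate 2 the levels were the other way round. The log2 fold change of Jup was 0.19 (SE 0.106, 95% interval −0.08 to 0.45, limma adjusted p = 0.770), the highest estimate among the members. Without replicate 2 it was 0.30 (SE 0.0457, unadjusted p = 0.00143, adjusted p = 0.198 with limma).

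Of the nectin and afadin system, Afdn encodes afadin, which ties nectins to actin, and Nectin2 encodes one of the nectins. Afdn (chr17:13760539-13906150) was 8.82, 8.86, 8.73, 8.84 and 8.74 log2 CPM in control replicates 1 to 5. In APP/PS1 replicates 1 to 5 it was 8.93, 8.88, 9.02, 8.91 and 9.01. The groups did not overlap, batch 2 included, although the highest control library and the lowest APP/PS1 library (both of replicate 2) differed by only 0.02. The log2 fold change was 0.15 (SE 0.0598, 95% interval 0.01 to 0.30, unadjusted p = 0.0424, adjusted p = 0.603 with limma), or 11.3% on the linear scale. Without replicate 2 it was 0.19 (limma adjusted p = 0.309). Nectin2 (chr7:19716644-19750483) was 4.61, 4.70, 4.75, 4.51 and 4.50 log2 CPM in the controls and 4.45, 4.35, 4.30, 4.55 and 4.55 in APP/PS1. Its APP/PS1 library was the lower in batches 1 to 3 and slightly the higher in batches 4 and 5, so the groups overlapped. For Nectin2 the log2 fold change was −0.17 (SE 0.0930, 95% interval −0.40 to 0.06, limma adjusted p = 0.739).

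Pecam1 encodes PECAM-1, which is CD31, the antigen that the beads used to pick the cells bound, so its level is tied to the isolation. Pecam1 (chr11:106654217-106750628) was 10.71, 10.89, 10.73, 10.70 and 10.75 log2 CPM in control replicates 1 to 5. In APP/PS1 replicates 1 to 5 it was 10.88, 10.70, 10.86, 10.90 and 10.85. As for Jup, replicate 2 lay alone at the far end of each group. The log2 fold change was 0.08 (SE 0.0699, 95% interval −0.09 to 0.25, limma adjusted p = 0.845), and 0.15 without replicate 2 (adjusted p = 0.298).

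Cdh2 encodes N-cadherin, known for contacts between endothelial and mural cells and between neurons and glia. Cdh2 (chr18:16588877-16809246) was 4.00, 4.01, 4.14, 4.14 and 4.01 log2 CPM in the controls and 4.00, 3.97, 3.85, 3.85 and 3.99 in APP/PS1. The groups did not overlap, by a margin under the rounding of these values, and the lower APP/PS1 level was clear in batches 3 and 4 (−0.28 each) but not in batch 1, where the difference was −0.002. For Cdh2 the log2 fold change was −0.13 (SE 0.0659, 95% interval −0.29 to 0.04, limma adjusted p = 0.734). The 12 mural markers, a cell type that also expresses Cdh2, all had estimates below 0 (median log2 fold change −0.76), with their summed level lower in APP/PS1 in 4 of 5 batches. The differences of the mural sum by batch were −1.68, −0.32, −0.43, −1.35 and 0.01 on the log2 scale. Markers of astrocytes, oligodendrocyte precursors, oligodendrocytes and neurons also had median estimates below 0 (−0.66, −0.74, −2.39 and −0.34), with 9 of 10, 6 of 7, 7 of 7 and 5 of 6 genes below 0. The part of these cell types in the Cdh2 values was not tested.

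**Figure D2:**
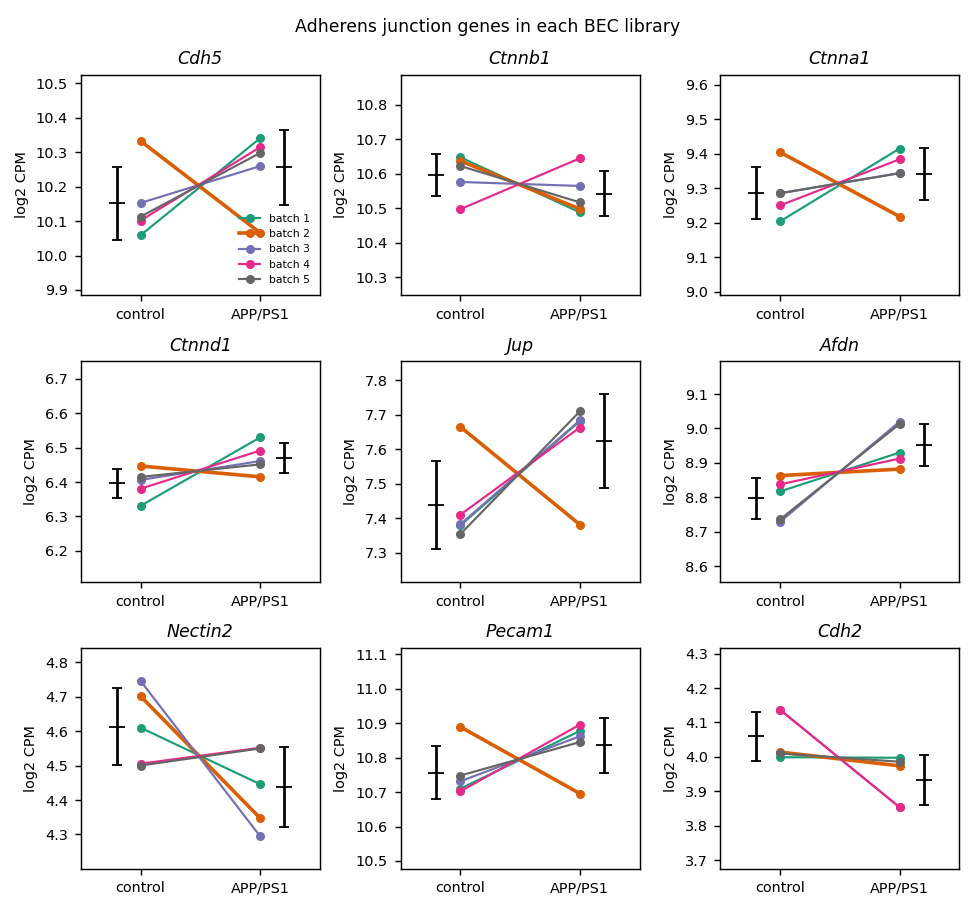
The 9 panels give log2 CPM of each member in control and APP/PS1 libraries, with a line for each batch, batch 2 drawn thick, and bars for the mean and SD of 5 libraries; each panel spans the same log2 range around its own level. The lines of batch 2 cross those of the other batches for Cdh5, Ctnna1, Ctnnd1, Jup and Pecam1, while all 5 lines of Afdn go up.

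**Figure D3:**
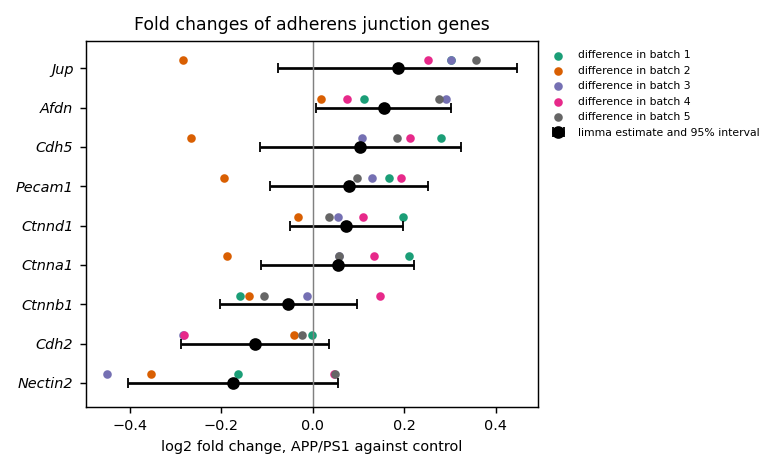
Black points and bars give the limma log2 fold change of APP/PS1 against control with its 95% interval, and coloured points above them the difference in each batch. The interval of Afdn (0.01 to 0.30) is the only one that leaves out 0, and batch 2 lies to the left of 0 for Jup, Cdh5, Pecam1, Ctnnd1 and Ctnna1.

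The direction by batch was compared with that of all genes. Afdn was the 1 member higher in APP/PS1 in all 5 batches, as 2.99% of all genes were, and Cdh2 the 1 lower in all 5, as 5% were. Since the batch means were set equal, the count of genes whose groups did not overlap is nearly the same count: Afdn in the higher direction, against 2.91% of all genes, and Cdh2 in the lower, against 4.96%. Cdh5, Ctnna1, Ctnnd1, Jup and Pecam1 were higher in APP/PS1 in 4 batches and lower in batch 2. That pattern, picked out after its values were seen, held for 5 of 9 members, for 8.81% of all genes and for 16.1% of the 5503 genes with a mean of at least 5 log2 CPM. It held for 3 of the 15 endothelial markers and for 19 of 89 other junction genes. The batch in which these 5 members were lower was the batch in which oligodendrocyte markers were higher in the APP/PS1 library. Their differences in batch 2 were −0.27 for Cdh5, −0.19 for Ctnna1, −0.03 for Ctnnd1, −0.28 for Jup and −0.19 for Pecam1. The part of the oligodendrocyte RNA in these values was not tested.

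**Figure D4:**
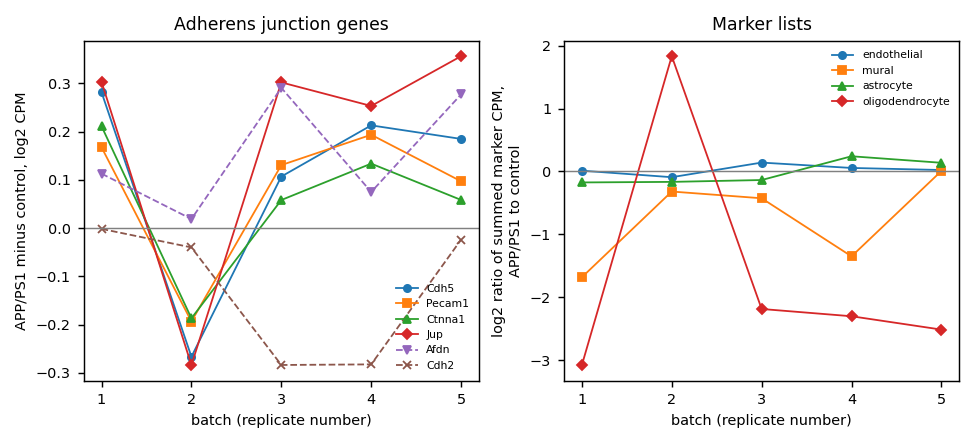
The left panel gives the APP/PS1 minus control difference in log2 CPM for 6 members in each batch, and the right panel the log2 ratio of summed marker CPM for 4 marker lists. In batch 2 Cdh5, Pecam1, Ctnna1 and Jup fall below 0 and the oligodendrocyte ratio is 1.83, whereas Afdn stays above 0.

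Without replicate 2, Cdh5, Jup, Afdn and Pecam1 had an unadjusted p under 0.05 in limma with 4 batches, which 14.2% of all genes had, and the smallest adjusted p of a member was 0.198. The log2 fold changes of the members not given above were then −0.03 for Ctnnb1, 0.10 for Ctnnd1, −0.13 for Nectin2 and −0.15 for Cdh2. Replicate 2 was singled out after its values were seen, with Cdh5, Jup and Pecam1 lower in APP/PS1 there. With replicate 1, 3, 4 or 5 left out instead, 0 members had an unadjusted p under 0.05 in limma. Between 748 and 939 of all 14106 genes did in those fits. Without the batch term, 5 members had an unadjusted p under 0.05, which 21.6% of all genes had in the same fit. None of the 9 had an adjusted one (smallest 0.0567, for Afdn), which 4.59% of all genes had. That fit treats the mirrored libraries of a batch as independent.

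Ratios within a library compared the members with each other. The log2 ratio of Cdh5 to the mean of Ctnnb1, Ctnna1 and Ctnnd1 was 1.39 ± 0.07 (control) and 1.47 ± 0.07 (APP/PS1), as SD with n = 5 each and from CPM, not per length, a difference of 0.08 with a two-sided exact sign-flip p of 0.25 over 5 batches. It was the higher in APP/PS1 in 4 of 5 batches, again with batch 2 as the exception. The catenin mean in this ratio includes Ctnnd1, whose level is uncertain. The log2 ratio of Cdh2 to Cdh5 was −6.09 ± 0.14 in control and −6.32 ± 0.14 in APP/PS1, lower in APP/PS1 in 4 batches and higher by 0.23 in batch 2 (exact sign-flip p = 0.188). An exact sign-flip test over 5 pairs cannot reach p < 0.05. Without replicate 2 the differences were 0.14 and −0.34. Batch 2 was the 1 batch going the other way for each ratio, so the agreement of the remaining 4 follows from its removal. The log2 ratio of Cdh5 to Pecam1, −0.60 ± 0.04 and −0.58 ± 0.04, differed by 0.02 (exact sign-flip p = 0.5, a comparison added after the data were seen). Over the 10 libraries it stayed between −0.65 and −0.54, although each of the genes differed between replicate 2 and the rest.

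The genes whose differences by batch were nearest to those of Cdh5, among 5502 other genes with a mean of at least 5 log2 CPM, were Zcchc14, Efnb2, Tmod3, Epas1 and Ap2a2. Their root mean square distances over the 5 batches were 0.0248, 0.0298, 0.0401, 0.0455 and 0.0456 log2 units. Efnb2 encodes ephrin-B2, an arterial endothelial ligand, and Epas1 encodes HIF-2α, an oxygen-responsive transcription factor also listed among the regulators of Cdh5. Among the members Pecam1 was 47th in this order, Ctnna1 77th, Jup 326th, Ctnnd1 624th, Afdn 1567th and Ctnnb1 3383rd. This is a description over 5 batches that share their libraries.

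The wider junction was described with 7 lists of 98 genes, of which 89 were in the table. None passed the adjusted threshold in limma (smallest adjusted p 0.483). Estimates were above 0 for 62 and below for 27, with a median log2 fold change of 0.03. Among all 14106 genes, 6798 were above 0 and 7308 below, and 12 of the 15 endothelial markers were above 0 (median 0.04). With library sizes without further scaling, the median of all genes moved from −0.00377 to −0.0409. An unadjusted p under 0.05 was found for 10 of the 89 genes (6 higher, 4 lower), that is 11.2% against 8.03% of all genes. Without replicate 2 it was found for 19 of the 89, against 14.2% of all genes in that fit, again with 0 past the adjusted threshold (smallest adjusted p 0.202).

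Of 9 other cadherins in the table, 4 had estimates above 0 and 5 below (median log2 fold change −0.10). Cdh1, Cdh3, Cdh8 and Cdh10 had no row. Pcdh7, a protocadherin, averaged 3.28 ± 0.12 (control) and 2.87 ± 0.13 (APP/PS1) log2 CPM (SD, n = 5 each), lower in all 5 batches, with a log2 fold change of −0.41 (limma adjusted p = 0.537). Its groups did not overlap. Cdh4 and Cdh11, the other classical cadherins with the lowest estimates, had log2 fold changes of −0.47 and −0.55 (limma adjusted p = 0.627 and 0.688) from means of 0.70 and 0.11 log2 CPM.

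Of 16 genes of the plaque and its actin linkers, 7 had estimates above 0 and 9 below (median log2 fold change −0.03). Lmo7, which binds afadin and α-actinin, had a log2 fold change of 0.16 (limma adjusted p = 0.569) and was higher in APP/PS1 in 5 of 5 batches. Actn1, an α-actinin that crosslinks actin, was lower in 5 of 5 batches, but by little (−0.10, adjusted p = 0.617), and so was Eps8, an actin-capping protein (−0.13, adjusted p = 0.598). Lmo7 was the 1 gene of the 16 that was higher in all 5 batches, and Actn1 and Eps8 were the 2 lower in all 5. Of all genes, 2.99% were higher and 5% lower in all 5 batches. None of the 16 passed the adjusted threshold in limma.

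Of 13 kinases and phosphatases of the VE-cadherin complex, 8 had estimates above 0 and 5 below (median log2 fold change 0.03). Ptprm, a receptor phosphatase of the junction, had a log2 fold change of 0.16 (limma adjusted p = 0.571) and was higher in 5 of 5 batches, though by only 0.01 in batch 2. Pak1, a kinase downstream of Rac, averaged 4.23 ± 0.15 (control) and 3.85 ± 0.15 (APP/PS1) log2 CPM (SD, n = 5 each), lower in 4 of 5 batches and higher in batch 2 (log2 fold change −0.38, limma adjusted p = 0.569).

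Of 17 genes listed for Rap1 and CCM (cerebral cavernous malformation) signalling, among them also Rhoa and the contractile kinases Rock1 and Rock2, 15 had estimates above 0 and 2 below (median log2 fold change 0.05). Rapgef2, an activator of Rap1, averaged 8.04 ± 0.05 (control) and 8.28 ± 0.05 (APP/PS1) log2 CPM (SD, n = 5 each), higher in all 5 batches by 0.15 to 0.38. Its log2 fold change of 0.24 (SE 0.0532, unadjusted p = 0.00447) had the smallest adjusted p of the 89 genes in limma, 0.483. Rock2, a kinase that drives actomyosin contraction, had an estimate of 0.16 (limma adjusted p = 0.569) with the APP/PS1 library above its control in each of the 5 batches.

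Of 16 factors reported to regulate Cdh5 transcription, 14 had estimates above 0 and 2 below (median log2 fold change 0.06). The list also holds repressors of the Snail and ZEB type: Snai1 (−0.18), Snai2 (0.03) and Zeb1 (0.02). The count therefore gives no direction for the regulation of Cdh5. Klf4, a flow-responsive factor of endothelium, averaged 10.49 ± 0.08 (control) and 10.73 ± 0.09 (APP/PS1) log2 CPM (SD, n = 5 each), and Ets1, an ETS factor, averaged 9.27 ± 0.08 and 9.48 ± 0.08. Both were higher in 5 of 5 batches, with log2 fold changes of 0.25 and 0.21 (limma adjusted p = 0.566 and 0.571). Among 10 genes of shedding and turnover, 7 had estimates above 0, and the largest in size were Rnf111 (0.10, adjusted p = 0.792) and Cbl (0.09, adjusted p = 0.845), both ubiquitin ligases. Among 8 other genes listed here for adhesion at the lateral border, 7 had estimates above 0. The largest in size were for Cd34, a sialomucin (0.07, higher in 5 of 5 batches, limma adjusted p = 0.792), and Cd99l2, a CD99 relative (−0.06, limma adjusted p = 0.845).

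**Figure D5:**
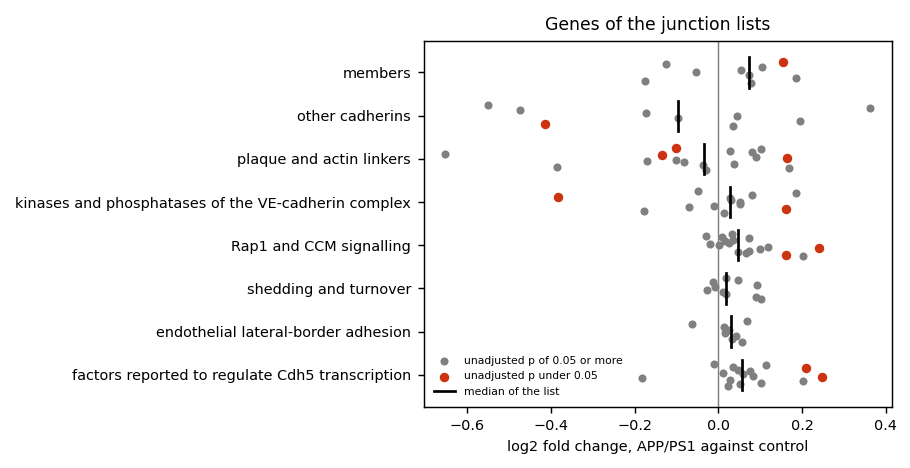
Each point is the limma log2 fold change of a gene of the members or of 1 of 7 junction lists, with red for an unadjusted p under 0.05 and a black bar at the median of the list. The points of the Rap1 and CCM list and of the Cdh5 factors lie mostly to the right of 0, with Rapgef2 (0.24) and Klf4 (0.25) as their highest.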

How the data were processed

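RNA from 10 BEC libraries was analysed (5 APP/PS1, 5 control). By the methods and labels, the authors aligned reads with STAR (mm10), summed them over genes with HTSeq, filtered and took log CPM with edgeR and corrected for batch with ComBat; versions are not given in the sources used here. The authors deposited log2 CPM for 14106 genes. These values convert back to whole adjusted counts (tolerance 0.01, lowest value −4.85 log2 CPM), which are no longer reads, and counting error was left out. ComBat applied to log CPM would not in general leave whole numbers, and the correction behind the deposited values was not settled here.

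The members and lists were chosen with earlier results of these data known. limma 3.58.1 in R 4.3.3 (lmFit and eBayes) was fitted to the log2 values with genotype and 5 batches (4 residual degrees of freedom). Each batch was 1 control and 1 APP/PS1 library of the same replicate number. Benjamini-Hochberg adjustment ran over 14106 genes, with a threshold of 0.05. The sample labels give 4 batches, tried as an alternative. In that fit 16 of 89 junction list genes and 1615 of 14106 genes had an unadjusted p under 0.05 in limma. Past the adjusted threshold were 0 junction list genes and 1 of all genes. The pairing of replicates comes from this batch scheme. A fold change is on the log2 CPM scale. Ratios were tested with exact sign-flip permutation over batches. Named genes were the members, list genes with an unadjusted p under 0.05 or, where fewer than 2, the 2 farthest from 0, and the 5 nearest to Cdh5. Symbols and positions came from GENCODE M21 (GRCm38), matched for 14106 of 14106 genes; promoters came from RefSeq (GRCm38.p6). The alternatives covered the batch term, scaling, filters, prior count, threshold, limma-voom and each replicate left out. The fit was tested on simulated data with larger changes than those of the members and no reversed batch. That test therefore does not cover changes of the members' size. A gene of the shedding list is counted but not reported by name here.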

Additional observations from a re-analysis of the deposited data

Results flagged for a closer look

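In 22 groups of 5 libraries (9 members and the ratios of Cdh5 to the catenins and of Cdh2 to Cdh5, in each genotype), 4 had a library whose gap to its nearest neighbour exceeded the 95% limit for its group; chance flags about 1 in 20 groups. All 4 were replicate 2. Jup was 7.67 log2 CPM in control replicate 2 against 7.35 to 7.41 in the other control libraries, and 7.38 in APP/PS1 replicate 2 against 7.66 to 7.71. Pecam1 was 10.89 log2 CPM in control replicate 2 against 10.70 to 10.75, and 10.70 in APP/PS1 replicate 2 against 10.85 to 10.90. Because the batch means were set equal, the control and APP/PS1 values of a gene in replicate 2 are mirror images, so the control and APP/PS1 entries of a gene are 1 observation seen from both sides. The oligodendrocyte marker sum was also reversed in replicate 2, and its part in these values was not tested.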

How the results depend on the processing

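No member passed the adjusted threshold under any alternative run, and no direction of a member turned. With no replicate block, that is without the pairing by batch, 10 of 89 junction list genes passed (0 with it), as did 4.59% of all genes (0% with it), and the log2 ratio of Cdh2 to Cdh5, −0.23, had an exact permutation p of 0.0397 (5 against 5 libraries). Those 10 were Rapgef2, Pcdh7, Actn1, Rock2, Lmo7, Ptprm, Klf4, Eps8, Pak1 and Ets1. That fit counts mirrored libraries as independent, with 8 residual degrees of freedom in place of 4. The other 175 values kept their direction and side of the threshold. When each replicate was dropped, the log2 fold change ranged from 0.06 to 0.20 for Cdh5, −0.10 to −0.03 for Ctnnb1, 0.02 to 0.12 for Ctnna1, 0.04 to 0.10 for Ctnnd1, 0.14 to 0.30 for Jup, 0.12 to 0.19 for Afdn, −0.23 to −0.11 for Nectin2, 0.05 to 0.15 for Pecam1 and −0.16 to −0.09 for Cdh2. The unadjusted p of Afdn was under 0.05 without replicate 2 but not without replicate 1, 3, 4 or 5. With library sizes without further scaling it was 0.0928 in limma, and Nectin2, at 0.0489, was then the 1 member under 0.05. That scaling moved the median of all genes from −0.00377 to −0.0409 and the genes with an unadjusted p under 0.05 from 300 higher and 833 lower to 156 and 980. Leaving out replicate 2 raised that number from 1133 to 2008, with 5 genes past the adjusted threshold. Precision was limited by 5 batches.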
